A study of Mus musculus with 24 samples.

Results

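The digestive tissue of the pancreas is represented in these islet libraries by 34 genes, of 28059 in the table: 24 encode proteins secreted by acinar cells, 4 encode transcription factors of acinar cells and 6 are markers of ducts. The genes were taken by symbol, and every symbol matched 1 row of the table through its NCBI Gene number. They are followed here library by library, as a measure of how much exocrine RNA came along with the islets and how that amount fell across the genotypes. Not all of them follow the acinar level, as described below.

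Islets were harvested from mice of mixed background aged 3-4 months, cultured and picked by hand, and their RNA was sequenced. All animals carried floxed Cop1, which encodes an E3 ubiquitin ligase whose known substrates include the ETS factors ETV1, ETV4 and ETV5. Controls were Cop1 fl/fl without Cre, and Cop1 deletion animals were Cop1 fl/fl; Pdx1.CreERT2, in which a ligand-activated Cre is driven by the Pdx1 promoter. The compound animals of set 1 carried Cop1fl/fl and Pdx1.CreERT2 together with Etv1fl/fl, Etv5fl/fl and Etv4ko/ko, and those of set 2 carried Cop1fl/fl and Pdx1.CreERT2 together with Etv5fl/fl and Etv4ko/+. The sets are named here after the 2 series of sample numbers. Pdx1 is strongest in β cells and is also present at a low level in adult acinar cells, the Etv4 knockout allele is not limited to any cell type, and the set 2 compound animals retained 1 intact Etv4 allele. The labels do not give a Cre-inducing treatment, and controls without Cre do not control for Cre itself. With columns that name a single sample, there were 3 libraries each of set 1 control and set 1 Cop1 deletion and 4 of each other group, 22 in all.

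Islets are embedded in exocrine tissue, which makes up most of the pancreas. Acinar cells fill zymogen granules with proteases, lipases, amylase and nucleases, and transcripts of these enzymes dominate acinar RNA, while duct cells carry the juice to the gut and add bicarbonate and water. Acinar enzyme genes are switched on by the PTF1 complex, in which Ptf1a and Rbpjl bind an E-box together with a TGGGAAA box, and by Nr5a2 and Bhlha15 (Mist1).

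Promoters that hold both kinds of box are printed as examples of the sequences named above, and most acinar promoters do not hold both. RefSeq promoter windows on GRCm38.p6, from 250 bases before to 50 bases after the start of the gene, matched 28 of the 34 genes. The reads were mapped to mm9, another build, so the windows serve only as sequence. On either strand, TGGGAAA was present in 6 of 19 windows of acinar secreted proteins (31.6%) and in 8.01% of all 27025 windows, and CACCTG, 1 form of the E-box, in 11 of 19 (57.9%) and in 20%. Both were present in 3 of the 19 (15.8%) and in 1.59% of all windows. Those 3 belong to the elastase Cela2a (chr4:141825956-141826255, minus strand), the bile-salt-activated lipase Cel (chr2:28563354-28563653, minus strand) and the trypsinogen Prss2 (chr6:41521526-41521825, plus strand). They are printed 5′ to 3′ on the strand of the gene, with TGGGAAA and CACCTG, or their reverse complements, in capitals. A match is a description of letters and not a shown binding site, and the boxes lie apart from each other.
Cela2a: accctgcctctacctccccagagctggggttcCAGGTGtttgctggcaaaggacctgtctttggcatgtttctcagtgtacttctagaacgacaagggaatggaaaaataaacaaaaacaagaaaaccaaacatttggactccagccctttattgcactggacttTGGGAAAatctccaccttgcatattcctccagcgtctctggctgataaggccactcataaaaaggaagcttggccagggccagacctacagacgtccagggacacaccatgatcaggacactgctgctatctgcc
Cel: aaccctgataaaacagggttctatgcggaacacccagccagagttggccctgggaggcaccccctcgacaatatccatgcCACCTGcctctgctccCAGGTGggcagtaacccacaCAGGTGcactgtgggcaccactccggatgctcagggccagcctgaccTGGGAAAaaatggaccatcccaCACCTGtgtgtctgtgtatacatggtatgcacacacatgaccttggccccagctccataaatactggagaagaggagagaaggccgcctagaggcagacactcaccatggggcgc
Prss2: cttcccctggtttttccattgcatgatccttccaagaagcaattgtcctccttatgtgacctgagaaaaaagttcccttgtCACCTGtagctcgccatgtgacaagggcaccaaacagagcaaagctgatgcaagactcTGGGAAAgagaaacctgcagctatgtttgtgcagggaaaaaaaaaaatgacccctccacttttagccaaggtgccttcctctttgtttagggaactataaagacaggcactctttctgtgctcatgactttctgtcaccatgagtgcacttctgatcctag
The TGGGAAA box began 85 bases before the start in Cela2a, 87 in Cel and 111 in Prss2. The E-box lay farther upstream in Cela2a, at 218 bases, and in Prss2, at 169. Cel had 4 such boxes, 3 of them upstream of the TGGGAAA box, at 170, 154 and 134 bases, and 1 downstream, at 65. No 2 capitalised stretches overlap. Among the acinar secreted genes matched, neither motif was found in the windows of Pnlip, Pnliprp1, Rnase1, Sycn and Gp2.

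The libraries of set 1 were shallower, with depths of 0.331 to 0.526 relative to the deepest library, against 0.758 to 1 in set 2. Absolute read numbers are unknown. Cop1 was lower in every deletion library than in every control of its set (in set 2, 0.763 to 0.934 RPKM against 1.43 to 1.87). Esr1, read from the CreERT2 transgene as well as from the native gene, was 44 to 111 RPKM in all Cre libraries and at most 0.2 in the controls, except in the library labelled set 1 control replicate 2, at 99.1 RPKM, which goes against its label. The share, the counts of exocrine genes called after Cop1 deletion and the exocrine genes called against controls are also given without it. For Tmed6, Krt7, Spp1 and C1qa, values without it are given only for Cop1 deletion against control over both sets. Other counts and calls outside the exocrine genes are not given without it. Set 2 Cop1 deletion replicates 2 and 3 stood apart, with the immune gene Ptprc at 4.96 and 2.77 RPKM against at most 0.869 in the rest of set 2. That gene was chosen after its values were seen. Set 2 control replicate 4 and the set 2 Cop1 deletion libraries had the lowest median rank correlations with their own group (0.953 to 0.9737, against 0.9819 to 0.9946 in the other libraries). All 4 set 2 controls had Xist above 1 RPKM, whereas 2 of 4 libraries in each other set 2 group had the Y-linked Ddx3y above it, and in set 1 3 libraries had both above 1 RPKM.

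Acinar enzymes were plentiful in every library. RPKM scale reads to gene length and library size, so levels of different genes can be compared. Ctrb1, a chymotrypsinogen (chromosome 8), led the list, at 752 to 4010 RPKM in set 1 (median 2420) and 419 to 12600 in set 2 (median 1910). In set 1 the pancreatic elastases Cela2a and Cela1 followed with medians of 1640 and 988, then the triglyceride lipase Pnlip with 964 and Prss2 with 862. In set 2 the order below Ctrb1 was Cela1 (663), Prss2 (506), Cela2a (461), Reg1 (223), a regenerating-family secreted protein, and Cpa1 (215), a carboxypeptidase. These neighbours lie far inside each other's range and cannot be ordered beyond the spread. At the other end stood Prss1, a trypsinogen listed at 0 in 4 libraries and at most 0.77 RPKM.

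The mix of enzymes differed between the sets. Ctrb1 was 18.1 to 21.8% of the summed acinar RPKM in set 1 and 32.8 to 43.2% in set 2. Cela2a took up 13.1 to 14.9% in set 1 against 6.44 to 8.81% in set 2, and Clps, the colipase that anchors pancreatic lipase, 5.22 to 6.62% and 1.33 to 2.79%. Amy2b, a pancreatic amylase, was 0.185 to 0.55% and 0.0206 to 0.0614%. None of these ranges overlaps between sets. Set coincides with depth and with the series of sample numbers, and these cannot be told apart here.

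Within a set the enzymes rose and fell as a block. For the 21 acinar secreted genes other than Ctrb1 and the low Prss1 and Prss3, the median SD of the log2 level over libraries was 0.91 in set 1 (n = 10) and 1.44 in set 2 (n = 12). The median SD of the log2 ratio to Ctrb1 was 0.14 and 0.27, and this SD was smaller than that of the level for all 21 genes in both sets. With Cela1 as the reference, those medians were 0.13 and 0.33. Zg16, a zymogen granule protein, and Prss2 kept the steadiest ratios, with an SD of 0.10 for Zg16 in set 1 and 0.10 for Prss2 in set 2. The loosest were Ctrc in set 1 (2.38), which encodes chymotrypsin C, and Pnlip in set 2 (0.71).

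**Figure D1:**
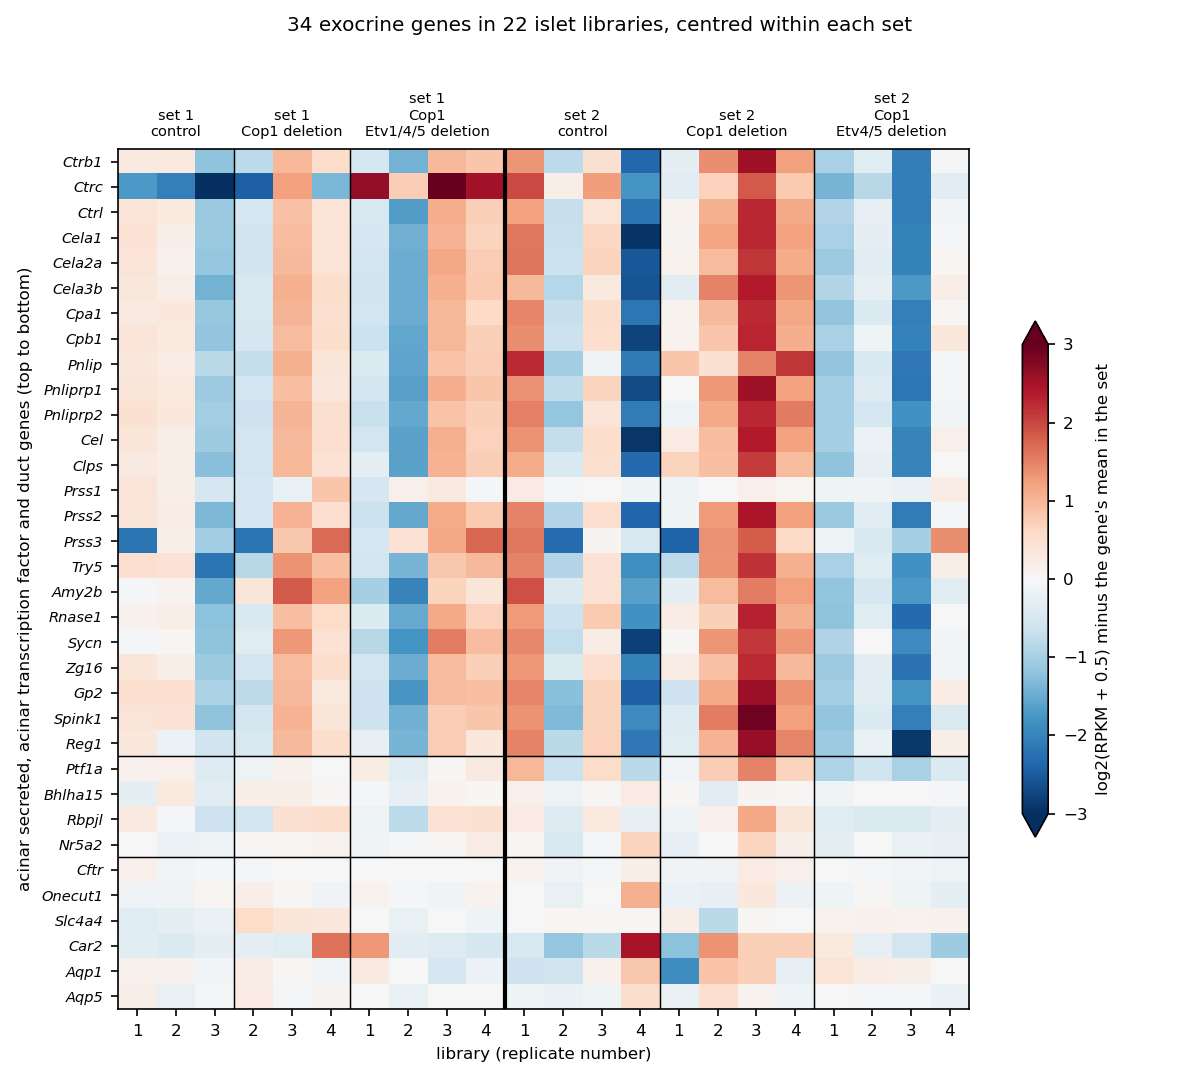
Colour gives log2(RPKM + 0.5) of each of the 34 genes minus that gene's mean in the set, with libraries in columns by group and replicate number and genes in rows, and values beyond 3 shown at the end colours. The acinar secreted genes form vertical bands of 1 colour within most libraries, Ctrc and Prss3 break the bands, and Bhlha15 and the duct genes below do not follow them.

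Summed over the 24 acinar secreted genes, exocrine RNA varied 6.26-fold over set 1 and 24.8-fold over set 2. In set 1 it made up 1.86, 1.87 and 0.667% of the total RPKM in controls, 1.13, 3.31 and 2.28% after Cop1 deletion, and 1.08, 0.529, 3.06 and 2.58% after Cop1 Etv1/4/5 deletion. In set 2 it made up 2.44, 0.53, 1.31 and 0.198% in controls, 0.915, 1.91, 4.91 and 2.13% after Cop1 deletion, and 0.45, 0.71, 0.21 and 0.881% after Cop1 Etv4/5 deletion. All set 1 groups overlapped, and in set 2 controls overlapped both other groups. Only the set 2 Cop1 deletion and Cop1 Etv4/5 deletion groups stood clear of each other, with the highest Etv4/5 library at 0.881% and the lowest Cop1 deletion library at 0.915%. This separation depends on the measure. With Ins1 and Ins2 left out of the total, Cop1 deletion replicate 1 was at 1.18% and Cop1 Etv4/5 deletion replicate 4 at 1.19%, and on the mean of log2(RPKM + 0.5) over the 24 genes they were at 6.04 and 6.24, so the groups overlapped on both. On the plain share, leaving out Cop1 deletion replicates 2 and 3 could not end the separation, since replicate 1, the lowest of that group at 0.915%, remains. In bulk RNA, more acinar cells and more enzyme RNA per acinar cell cannot be told apart.

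**Figure D2:**
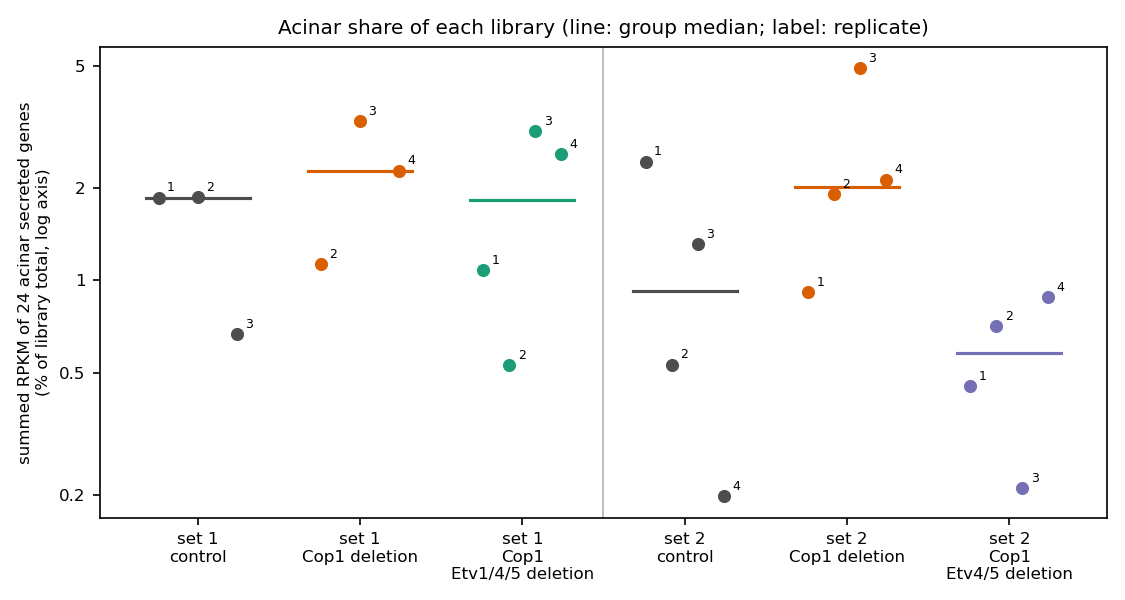
Points are libraries, labelled by replicate, and lines are group medians; the vertical log axis gives the summed RPKM of the 24 acinar secreted genes as a percent of the library's total. Spread within most groups is as wide as the difference between groups, and the 4 set 2 Cop1 Etv4/5 deletion libraries (0.21 to 0.881%) lie below the 4 set 2 Cop1 deletion libraries (0.915 to 4.91%).

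In set 1 the mean share was 1.47 ± 0.69% in controls (SD, n = 3), 2.24 ± 1.1% after Cop1 deletion (n = 3) and 1.81 ± 1.2% after Cop1 Etv1/4/5 deletion (n = 4). The set 2 means were 1.12 ± 1% for controls, 2.47 ± 1.7% after Cop1 deletion and 0.563 ± 0.29% after Cop1 Etv4/5 deletion (SD, n = 4 each). Without the library labelled set 1 control replicate 2, the set 1 control mean was 1.26%. Leaving out set 2 control replicate 1 moved the control mean to 0.68%, and leaving out set 2 Cop1 deletion replicate 3 moved that mean to 1.65%. Summed RPKM of immune markers was also higher in the Cop1 deletion libraries of both sets, but such a sum can rest on few genes, and few were called. The 12 immune genes summed to 56.4 to 101 RPKM in set 2 controls, 153 to 282 after Cop1 deletion and 128 to 165 after Cop1 Etv4/5 deletion. In set 1 they summed to 74.9 to 86.1 RPKM in controls, 117 to 181 after Cop1 deletion and 73.9 to 107 after Cop1 Etv1/4/5 deletion. Of 10 tested, 1 rose after Cop1 deletion over both sets, the macrophage complement gene C1qa, by 1.93 (limma, adjusted p = 2.98e-09; 1.90 without the library labelled set 1 control replicate 2). Over both sets all 10 had values above 0, with a median of 0.42. In set 1, 5 of the 10 had values above 0 and 5 below, with a median of 0.05, and 1 was called, beside 8.33% of all genes. For Cop1 Etv4/5 deletion against control, 6 were above 0 and 4 below, also with a median of 0.05. There 1 was called, beside 8.74% of all genes. In set 2 all 10 were above 0, with a median of 0.80, and 2 were called, beside 18.8% of all genes. The part of these other cells in the acinar values was not tested. Ins1 and Ins2, the insulin genes, took 31.5 to 41.1% of the total RPKM in set 1 and 21 to 30.7% in set 2, so the acinar share also depends on the denominator.

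The comparison of Cop1 deletion with control asks whether loss of Cop1 changed exocrine RNA. None of the listed acinar genes passed the test over both sets. Of the 34 genes, 29 passed the filter on low values and were tested with limma over all 14342 genes, and fold changes are on the log2(RPKM + 0.5) scale. Over both sets, 0 of 29 were called (adjusted p under 0.05), against 20.1% of all genes tested in that comparison. Of the 29, 3 had an unadjusted p under 0.05, beside 4657 of all 14342 genes. The log2 fold changes of the 23 acinar secreted genes tested were all above 0, with a median of 0.98, beside -0.02 over all genes tested. For Ctrb1 the difference was 1.02 (SE 0.575, adjusted p = 0.23). These genes vary as a block over the same libraries, so their common sign is not independent evidence. Over the 29 genes the median was 0.93, and 0.59 to 1.22 over the alternatives. Without the library labelled set 1 control replicate 2, 0 were called and the median was 1.05.

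In set 1, 1 of 29 genes was called, against 8.33% of all genes. This was Slc4a4, described with the duct genes below. Ctrb1 was 2400, 2440 and 864 RPKM in controls and 1170, 4010 and 2930 after Cop1 deletion. The groups overlapped, and the log2 fold change was 0.48 (SE 0.87, adjusted p = 0.848), with an interval of 2 SE on each side from -1.26 to 2.22. The 23 acinar secreted genes had a median of 0.49. Without the library labelled control replicate 2, 2 of the 29 genes were called, and the median over the 29 moved from 0.48 to 0.65. That median was 0.02 without control replicate 3, 0.18 without Cop1 deletion replicate 3 and 0.91 without Cop1 deletion replicate 2. Amy2b and Slc4a4 lay higher in every Cop1 deletion library than in every control, where 14.7% of all genes did so, and no gene of the list lay lower in every one, where 15.3% of all genes did.

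Amy2b left the block in set 1, though less than Ctrc, described below. It was 26.8, 29.5 and 9.06 RPKM in controls, 35.5, 99 and 64.2 after Cop1 deletion, and 13.4, 6.39, 43.7 and 35.5 after Cop1 Etv1/4/5 deletion. Per 1000 RPKM of Ctrb1 it was 10.5 to 12.1 in controls, 21.9 to 30.3 after Cop1 deletion and 8.5 to 11 after Cop1 Etv1/4/5 deletion, with no overlap between the Cop1 deletion group and either other group, also without the library labelled control replicate 2. The change in Amy2b itself was not called (log2 fold change 1.63, SE 0.783, adjusted p = 0.25). In set 2, at 0.334 to 9.36 RPKM in controls and 1.61 to 6.91 after Cop1 deletion, no such separation was present, and its ratio to Ctrb1 was 0.797 to 1.74 and 0.547 to 1.1 per 1000. Amylase genes are near-identical copies, so how reads were divided among them is uncertain.

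In set 2, acinar RNA was on average higher after Cop1 deletion, but 0 of 29 genes were called, against 18.8% of all genes. Ctrb1 was 5380, 1250, 2950 and 419 RPKM in controls and 1750, 5640, 12600 and 5040 after Cop1 deletion. Replicate 1 of the controls reached the middle of the Cop1 deletion range. The log2 fold change was 1.56 (SE 0.753, adjusted p = 0.152). All 23 acinar secreted genes had positive values with a median of 1.47. Of the 23, 5 had an unadjusted p under 0.05, beside 4847 of all 14342 genes tested. The smallest adjusted p was 0.104, for the elastase Cela3b. As these genes vary as a block, they are not independent of each other. None lay higher in every Cop1 deletion library than in every control, where 7.63% of all genes did, and none lower, where 8.43% did. Over all 29 genes the median was 1.39, and it was 0.68 without control replicate 4 and 0.78 without Cop1 deletion replicates 2 and 3. Without control replicate 1 it was 1.93, and 3 genes were called.

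Whether the sets differed in this respect was asked of the difference between their Cop1 deletion effects. Of the 29 genes 1 was called, Slc4a4 again, against 2.83% of all genes. For Ctrb1 the difference, set 2 minus set 1, was 1.08 (adjusted p = 0.668, with an interval of 2 SE on each side from -1.22 to 3.38).

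When the ETS factors were deleted together with Cop1 in set 1, Ctrc was the only one of the 29 genes called. Against controls, 1 of 29 genes was called in the Cop1 Etv1/4/5 deletion group, beside 1.32% of all genes, and the 23 acinar secreted genes had a median log2 fold change of 0.08. Over the 29 genes the median was also 0.08, and 0.29 without the library labelled control replicate 2. Its sign turned in 4 alternatives, to between -0.35 and -0.1: with weights for library quality and without control replicate 3 or Cop1 Etv1/4/5 deletion replicate 3 or 4. It was 0.55 without Cop1 Etv1/4/5 deletion replicate 2. Ctrb1 was 1380, 752, 3980 and 3570 RPKM, spanning the controls, with a log2 fold change of 0.19 (SE 0.814, adjusted p = 0.997). Against Cop1 deletion, 1 of 29 genes was called, beside 6.34% of all genes, and the median of the 23 was -0.39. Over the 29 genes it was -0.35, with a range over the alternatives from -0.77, without Cop1 deletion replicate 2, to 0.09, without Cop1 Etv1/4/5 deletion replicate 2. The called gene was Ctrc in both.

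Ctrc acts on other pancreatic zymogens, including trypsinogen. In set 1 it was 3.87, 2.99 and 0.975 RPKM in controls, 2.15, 33.2 and 5.09 after Cop1 deletion, and 89.6, 23.4, 190 and 82.7 after Cop1 Etv1/4/5 deletion. Every Cop1 Etv1/4/5 deletion library lay above every control, as for 6.52% of all genes in that direction. It overlapped Cop1 deletion through replicate 3 of that group, at 33.2. Ctrc rose against controls by 4.76 on the log2 scale (SE 0.884, adjusted p = 0.00702) and against Cop1 deletion by 3.27 (SE 0.884, adjusted p = 0.0307). The call against controls ended without set 1 control replicate 3 (adjusted p = 0.0527) and when set 1 was fitted alone (adjusted p = 0.0621); the call against Cop1 deletion ended on leaving out any of 5 libraries, namely Cop1 Etv1/4/5 deletion replicates 1, 3 and 4 and Cop1 deletion replicates 2 and 4 (adjusted p from 0.0661 to 0.187). It also ended with set 1 fitted alone (0.072) and with weights for library quality (0.0611). Without the library labelled control replicate 2 the value against controls was 4.91 (limma, adjusted p = 0.0149). The mice were of mixed background, and the part of background in the Ctrc values was not tested.

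The rise did not follow the acinar block. Per 1000 RPKM of Ctrb1, Ctrc was 1.13 to 1.61 in set 1 controls, 1.73 to 8.29 after Cop1 deletion and 23.1 to 64.8 after Cop1 Etv1/4/5 deletion, with no overlap among the 3 groups. In set 2 it was 15.5 to 21.6 in controls, 6.76 to 10.7 after Cop1 deletion and 7.71 to 10.1 after Cop1 Etv4/5 deletion. In set 2 it was the controls that lay above both other groups, and the set 1 controls held the least Ctrc for their Ctrb1 of all libraries. In set 2 Ctrc was 93.6, 26.9, 56.4 and 6.49 RPKM in controls and 18.7, 38.3, 85.3 and 40.6 after Cop1 deletion, and it was not called there (log2 fold change 0.34, SE 0.818, adjusted p = 0.808).

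**Figure D3:**
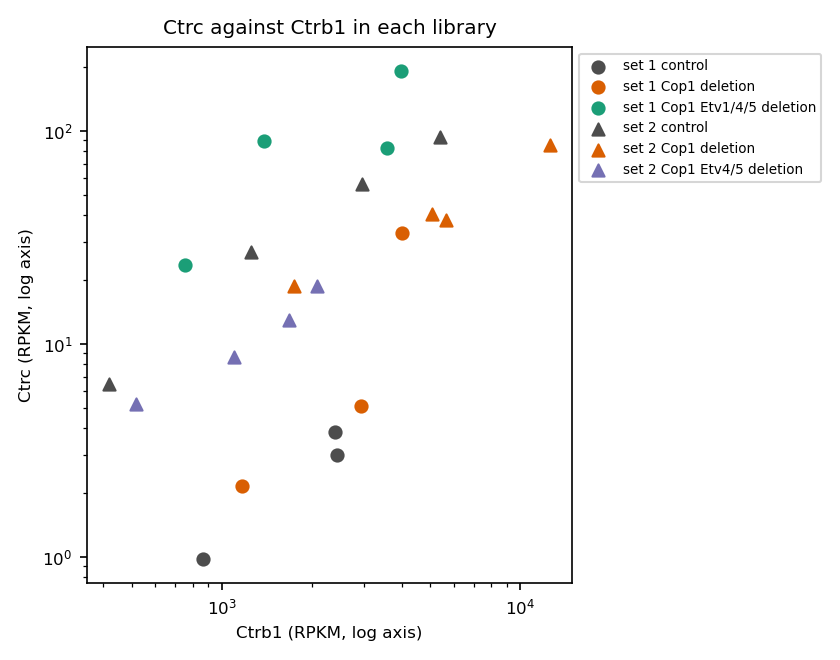
Each point is a library, with Ctrb1 on the horizontal and Ctrc on the vertical axis, both in RPKM on log axes; circles are set 1 and triangles set 2. The 4 set 1 Cop1 Etv1/4/5 deletion libraries (23.4 to 190 RPKM Ctrc) lie above set 1 control and Cop1 deletion libraries of like Ctrb1, and most set 2 libraries lie between.

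The mean acinar share was lowest in the set 2 Cop1 Etv4/5 deletion group. Against set 2 controls, 0 of 29 genes were called, beside 8.74% of all genes. Ctrb1 was 1100, 1680, 516 and 2080 RPKM, within the control range, with a log2 fold change of -0.51 (SE 0.753, adjusted p = 0.766). The median of the 23 acinar secreted genes was -0.55, and over all 29 genes the median moved from -0.52 to -1.15 without control replicate 4 and to 0.01 without control replicate 1, so its direction rests on single controls. Slc4a4 was the only gene of the list higher in every Etv4/5 library than in every control, where 11% of all genes were, and none was lower in every one, where 10.6% of all genes were.

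Against set 2 Cop1 deletion the acinar genes lay lower together, and 1 gene was called. All 23 acinar secreted genes had negative log2 fold changes with a median of -2, beside 0.01 over all genes tested. Of the 23, 22 had an unadjusted p under 0.05, beside 3283 of all 14342 genes. None of those passed adjustment over all genes, and the smallest adjusted p among them was 0.104, for Spink1, the trypsin inhibitor of acinar secretions. For Ctrb1 the value was -2.07 (SE 0.753, adjusted p = 0.134). Since the enzymes vary as a block, neither their common sign nor the number under 0.05 is independent evidence. The gene called, of 29, was Ptf1a, beside 1.73% of all genes.

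Of the 29 genes, 16 lay lower in every Cop1 Etv4/5 deletion library than in every Cop1 deletion library, where 6.59% of all genes did so, and none lay higher in every one, where 7.22% of all genes did. The 16 were Ctrc, Ctrl, Cela1, Cela2a, Cpa1, Pnlip, Pnliprp1, Cel, Clps, Amy2b, Rnase1, Sycn, Zg16, Spink1, Ptf1a and Rbpjl. Most of these genes vary as a block over the same libraries, so the 16 are not independent of each other. As an example, Cela1 was 332, 541, 158 and 634 RPKM after Cop1 Etv4/5 deletion and 692, 1490, 3100 and 1500 after Cop1 deletion. The gap is narrow, since for Cela1 the highest Etv4/5 library and Cop1 deletion replicate 1 differ by less than the spread within either group.

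This comparison depended on how libraries were weighted. With weights for library quality, 23 of the 29 genes were called; those weights gave Cop1 deletion replicate 4 a weight of 6.02 and replicate 2 a weight of 0.0623, so that group then rested largely on 1 library. Fitted with set 2 alone, or without Cop1 deletion replicates 2 and 3, 0 were called. The median over the 29 genes was -1.92, and it was -1.43 without those libraries.

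**Figure D4:**
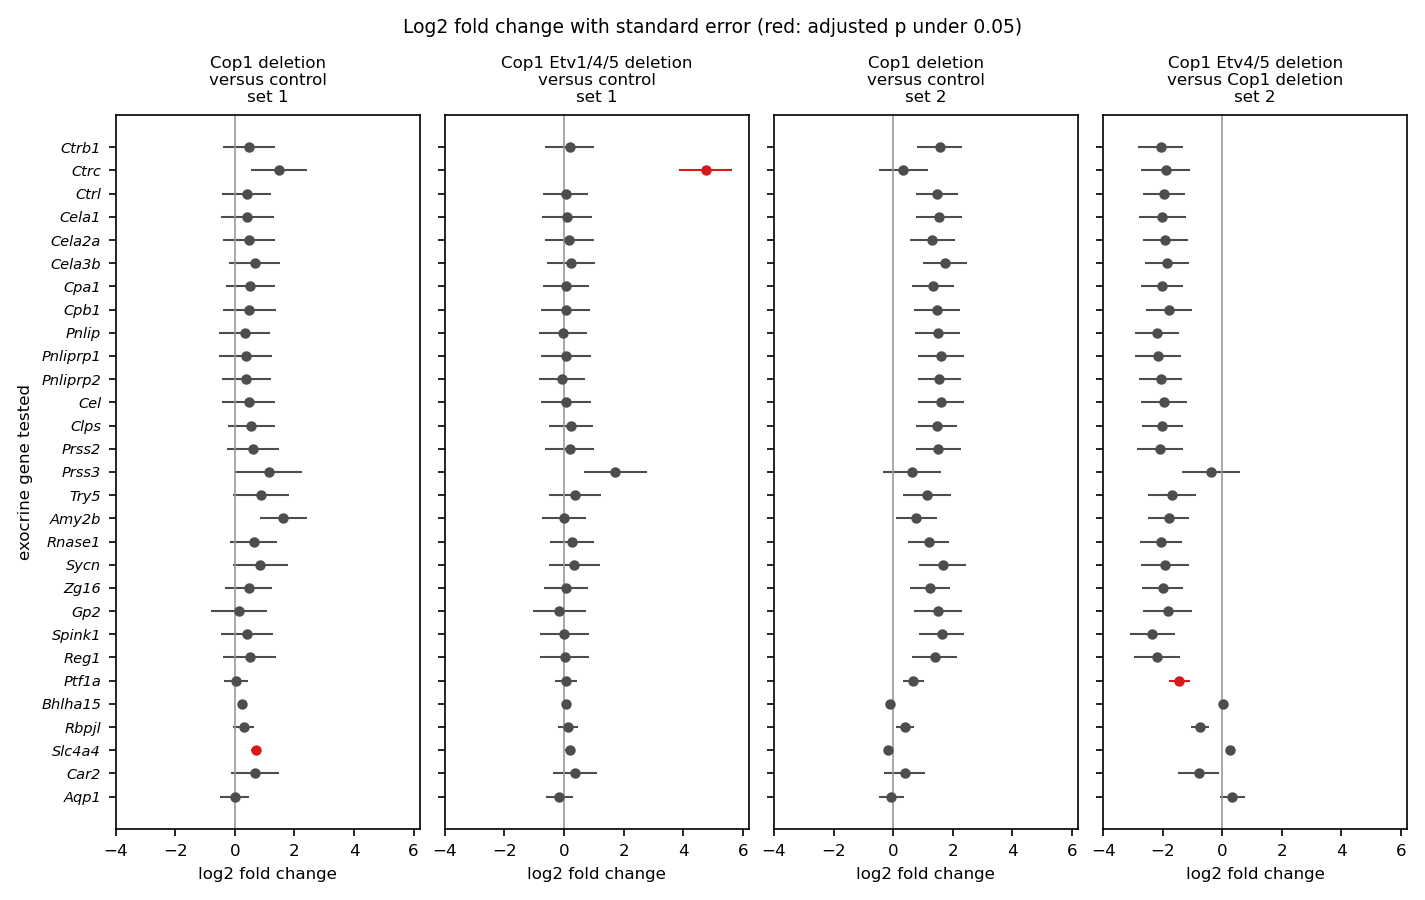
Points are log2 fold changes of the 29 genes tested, on the log2(RPKM + 0.5) scale, with bars of 1 SE and red for an adjusted p under 0.05, in 4 comparisons. The enzymes sit near 1.47 for Cop1 deletion and near -2 for Cop1 Etv4/5 against Cop1 deletion in set 2, and Ctrc (4.76), Slc4a4 (0.70) and Ptf1a (-1.44) are the genes called in these panels.

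The trypsinogen genes, precursors of trypsin that lie together on chromosome 6, showed a pattern of their own. In 4 libraries, namely replicate 1 of the set 1 controls, replicate 2 of set 1 Cop1 deletion, replicate 2 of the set 2 controls and replicate 1 of set 2 Cop1 deletion, Prss3 was at 0, 0, 0.0295 and 0 RPKM. It was 0.609 to 8.74 in the other 18 libraries. Try4, another trypsinogen, was at 3.36, 1.23, 0.36 and 1.03 RPKM in those same 4 libraries. In the same order, Prss2 stood at 898, 498, 292 and 487 RPKM, so the acinar block itself was present. Per 1000 RPKM of Prss2, Prss3 was 0 to 0.101 in the 4 and 2.21 to 13.6 in the other 18, and Try4 was 1.24 to 3.74 and 17.9 to 143. Try5 did not separate them, at 132 to 208 and 96 to 304. The 4 libraries and Try4 were singled out after their values were seen. They include a control and a Cop1 deletion library in each set and none of the compound groups. These genes are near-identical copies, so the division of reads among them is uncertain.

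**Figure D5:**
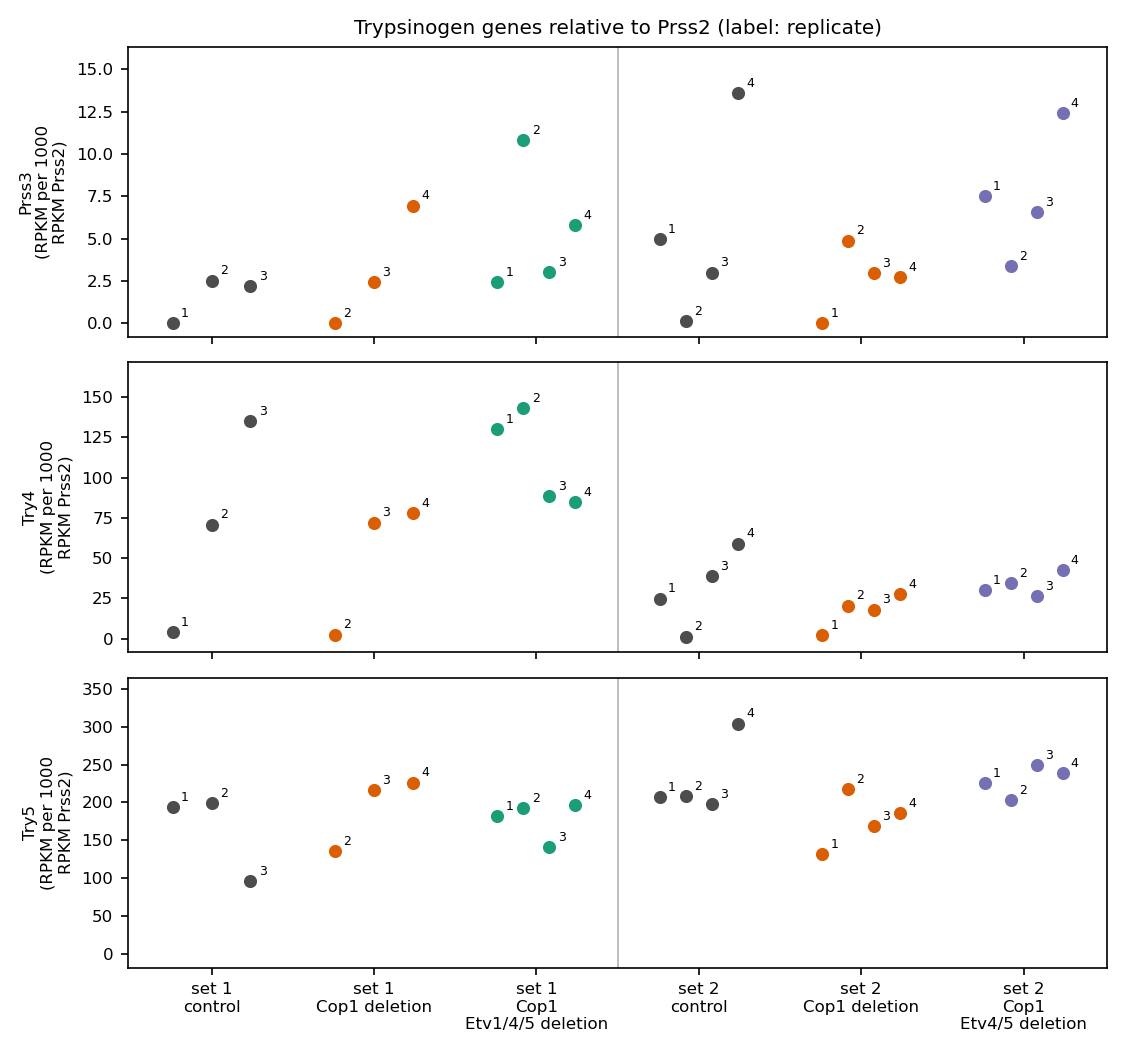
Points are libraries, labelled by replicate, and the linear vertical axes give Prss3, Try4 and Try5 in RPKM per 1000 RPKM of Prss2. In the 4 libraries near 0 for Prss3 (0 to 0.101) and for Try4 (1.24 to 3.74), Try5 (132 to 208) lies within the range of the others.

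Among the lipases, Pnlip was steady in set 1 and uneven in set 2, where the SD of the log2 ratio to Ctrb1 was 0.16 for Pnliprp1, 0.23 for Pnliprp2 and 0.30 for Cel. Per 1000 RPKM of Ctrb1, the Pnlip level of set 1 libraries was 350 to 521. In set 2 it was 175 in control replicate 1, 204 and 174 in Cop1 deletion replicates 1 and 4, and 44 to 108 in the other 9 libraries. Those 3 libraries come from different groups, controls and Cop1 deletion. Their Pnlip levels were 941, 357 and 878 RPKM.

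Values of 2 enzymes can share reads with entries of the same table that have no symbol. The gene numbered 100861890 at NCBI was 0.919 to 0.994 times Ctrb1 in every library, and that numbered 100862548 was 0.897 to 1.06 times Cela3b. The levels of Ctrb1 and Cela3b are uncertain to that extent.

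Among the transcription factors, Ptf1a and Rbpjl followed the enzymes at very low levels and Bhlha15 did not. Ptf1a was 0.128 to 2.95 RPKM, and in set 2 it was 1.96, 0.286, 1.31 and 0.205 in controls, 0.653, 1.56, 2.95 and 1.46 after Cop1 deletion, and 0.146, 0.312, 0.128 and 0.402 after Cop1 Etv4/5 deletion. Every Etv4/5 library lay below every Cop1 deletion library, and controls overlapped both. Ptf1a fell by 1.44 on the log2 scale between Cop1 deletion and Cop1 Etv4/5 deletion (SE 0.344, adjusted p = 0.038). Its levels are close to the pseudocount of 0.5, which understates the change. The call ended on leaving out any of 10 of the 22 libraries: all 4 set 2 Cop1 Etv4/5 deletion libraries, set 2 Cop1 deletion replicates 2 and 3, set 1 Cop1 Etv1/4/5 deletion replicates 1, 3 and 4 and set 1 Cop1 deletion replicate 3. The adjusted p was then 0.0503 to 0.125. It was 0.232 with set 2 alone and 0.0567 without a filter on low values.

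Rbpjl, the acinar partner of Ptf1a, was 0.0638 to 0.132 RPKM after Cop1 Etv4/5 deletion and 0.188 to 1.2 after Cop1 deletion in set 2, and was not called (log2 fold change -0.75, adjusted p = 0.174). Bhlha15, which shapes the secretory machinery of acinar and other secretory cells, lay between 13.4 and 21.1 RPKM in set 1 and between 17.3 and 25.9 in set 2. Its SD of the log2 level was 0.22 and 0.15, far below the 0.91 of Ctrb1 in set 1 and 1.46 in set 2. Nr5a2 was 0.149 to 0.914 RPKM and did not pass the filter.

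Duct genes were scarce and did not move with the enzymes. Together the 6 made up 0.000656 to 0.00358% of the total RPKM. The most abundant were Aqp1, a water channel that endothelial cells also make, at 0.838 to 11.2 RPKM, and Slc4a4, a sodium bicarbonate cotransporter, at 1.15 to 4.23. Cftr, the chloride channel that defines duct cells, was at most 0.193 RPKM, and Onecut1, a duct transcription factor, and Aqp5, a water channel, were each listed at 0 in 5 libraries. For all 3 duct genes tested, the SD of the log2 ratio to Ctrb1 exceeded that of the level in both sets.

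Slc4a4 was the only duct gene of the list that was called. Whether duct cells or other cells carried its change was not tested. In set 1 it was 2.01, 2.13 and 2.33 RPKM in controls, 4.23, 3.69 and 3.56 after Cop1 deletion, and 2.72, 2.29, 2.74 and 2.46 after Cop1 Etv1/4/5 deletion. Cop1 deletion lay above both other groups, and Slc4a4 was the only gene of the list lower in every Cop1 Etv1/4/5 deletion library than in every Cop1 deletion library, where 14.1% of all genes were; none was higher in every one, where 16.6% of all genes were. No gene of the list was lower in every Cop1 Etv1/4/5 library than in every control, where 7.54% of all genes were. Slc4a4 rose after Cop1 deletion by 0.70 (SE 0.167, adjusted p = 0.0114), and the value against Cop1 deletion after Cop1 Etv1/4/5 deletion was -0.50 (SE 0.156, adjusted p = 0.0611). The rise was not called without Cop1 deletion replicate 2 (adjusted p = 0.0601) or control replicate 1 (adjusted p = 0.0528). Without the library labelled control replicate 2 it was 0.70 (adjusted p = 0.0304).

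In set 2, Slc4a4 was 2.42, 2.5, 2.48 and 2.47 RPKM in controls and 2.81, 1.15, 2.47 and 2.43 after Cop1 deletion, with a log2 fold change of -0.18. The effects of the sets differed by -0.88 (set 2 minus set 1, SE 0.221, adjusted p = 0.0362), a call that ended on leaving out any of 8 of the 22 libraries: each set 1 Cop1 deletion library, set 1 control replicates 1 and 2 and set 2 control replicates 1, 2 and 3 (adjusted p from 0.056 to 0.101). It was also lost without a filter on low values (0.0519). Its level did not follow the acinar level, with a Pearson r of -0.1058 over 22 libraries after centring within set.

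Car2, a carbonic anhydrase of ducts and other cells, was uneven rather than linked to a group. It was 7.16 RPKM in set 2 control replicate 4 and 0.121 to 0.495 in the other controls of that set. That library had the lowest acinar share of all, 0.198%, and at the same time the highest Car2, Onecut1 (0.767), Aqp5 (0.328) and Nr5a2 (0.914), and the duct factor Sox9, chosen after its values were seen, at 3.93 RPKM. High values of the duct genes Car2, Onecut1, Aqp5 and Sox9, with Onecut1 and Aqp5 below 1 RPKM, and low enzymes thus stood together in this library. Nr5a2, also highest there, is one of the acinar transcription factors and not a duct gene of the list. Not all duct genes were high there. Slc4a4 was 2.42 to 2.5 RPKM over all set 2 controls, whereas Aqp1, at 2.62 to 7.91 RPKM over these controls, was highest in this library. The 16 other duct markers summed to 1830 RPKM in this library, within the 1610 to 2070 of the set 2 controls. Spp1 alone was 750 to 1270 RPKM over these controls, so the sum cannot show how the markers at low levels stood.

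The other duct markers were also not a copy of the acinar pattern. Of 16 tested, 6 rose and 1 fell after Cop1 deletion over both sets, where 20.1% of all genes were called, among them Krt7 by 0.80 (adjusted p = 7.95e-06) and Spp1, a secreted phosphoprotein, by 1.69 (adjusted p = 0.00191), by limma. Without the library labelled set 1 control replicate 2 these were 0.74 and 1.83, and both were called. The sets differed here. In set 1, 4 rose and 2 fell, where 8.33% of all genes were called. In set 2, 6 rose and none fell, where 18.8% were called. The effects differed between sets for 5 of 16, beside 2.83% of all genes. Krt7 was 107 to 142 RPKM in set 1 controls and 130 to 165 after Cop1 deletion, and 229 to 276 and 459 to 779 in set 2. The effect on Krt7 was larger in set 2 by 1.05 (limma, adjusted p = 0.00471). Krt19, the keratin most used to mark ducts, was not called (adjusted p = 0.347; chosen after its values were seen). Krt7, Krt8, Krt18 and Epcam are also made by islet cells, and the part of duct cells in these calls was not tested. Of 19 other acinar genes 15 were tested, 1 rose over both sets and none fell, and their median was 0.69. The gene was Tmed6, a cargo receptor of the secretory pathway, which rose by 1.87 (SE 0.125, adjusted p = 6.78e-09; 1.92 without the library labelled set 1 control replicate 2). It was 10.3 to 15.5 RPKM in set 1 controls and 48.8 to 66.5 after Cop1 deletion, and in set 2 it was 14.4 to 19.4 and 41.5 to 63.5. Unlike the enzymes, its groups did not overlap in either set. Whether acinar or islet cells carried its rise was not tested. In set 1 Tmed6 was also higher after Cop1 Etv1/4/5 deletion than in controls, by 1 on the log2 scale (adjusted p = 0.0045), and lower than after Cop1 deletion (log2 fold change -1.07, adjusted p = 0.000711). Among 8 genes of acinar stress and regeneration 0 were called over both sets by limma, and the median was 0.76. Of the 8, 1 had an unadjusted p under 0.05, beside 4657 of all 14342 genes. In set 2 alone 1 of the 8 rose after Cop1 deletion, beside 18.8% of all genes called. It was the stress-induced Nupr1, by 1.37 (limma, adjusted p = 0.0245). Between Cop1 Etv4/5 deletion and Cop1 deletion 1 fell, beside 1.73% of all genes called. It was Clu, a secreted chaperone, by 1.55 (limma, adjusted p = 0.036). Of the 8, 7 had an unadjusted p under 0.05, beside 3283 of all 14342 genes, and the median was -2.64. Whether these 8 genes vary apart from the acinar block was not tested. The cells that carried the Nupr1 and Clu changes were not tested either.

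Genes outside the list whose levels were most like the mean acinar level, after centring within set, were mostly known acinar genes. The r over 22 libraries was 0.9934 for the entry numbered 100861890, 0.9893 for 2210010C04Rik, 0.9833 for Pdia2, a pancreatic disulfide isomerase, 0.9805 for the kallikrein Klk1, 0.9788 for Tff2 and 0.9748 for Cuzd1, a zymogen granule protein. The entries numbered 100862143, 100862548 and 100502889 had 0.9842, 0.9815 and 0.9755. Within the list r ran from 0.9965 for Prss2 to 0.6315 for Ctrc and 0.6114 for Prss3 among enzymes, and was 0.1806 for Bhlha15. Each enzyme is itself part of the mean acinar level, which raises its r. The entries numbered 100861890 and 100862548 stayed close to Ctrb1 and Cela3b in every library, so their r is not separate from those members. Of 14313 other genes tested, 19 reached an r of 0.9 and 34 one of 0.8. Libraries share depth and total RPKM, so these values only describe.

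The acinar level entered the fit as a covariate, and the calls outside the list were counted again. Over both sets, 2333 genes were called after Cop1 deletion in place of 2877, of which 2234 were the same genes. The 2877 genes had a median absolute log2 fold change of 0.33 with and 0.33 without the covariate, and all kept their sign. The SE over all genes tested was 1.1 times as large at the median. In set 1 the counts were 1084 and 1194, and in set 2 they were 2068 and 2702. Mafa, a β-cell transcription factor, Slc2a2, the glucose transporter, and Aqp3, a water channel, kept their calls after Cop1 deletion in each. For Cop1 Etv4/5 deletion against Cop1 deletion in set 2, where the acinar level differed most, 12 genes were called in place of 247, all 12 among the 247. The 247 genes had a median absolute log2 fold change of 0.55 with and 0.55 without the covariate and all kept their sign, while the SE over all genes tested was 1.19 times as large at the median.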

How the data were processed

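RNA from hand-picked mouse islets was sequenced as Illumina libraries, per the labels' protocols. The authors deposited RPKM, reads per gene scaled to gene length and library size; per the submitters' processing notes the genome was mm9. The sources used here do not name an aligner, a counter or an annotation. Of 24 columns, 22 named a single sample by the number in its title; 2 did not and were not used. Symbols came from NCBI Gene numbers. The 14342 genes reaching 1 RPKM in 4 or more libraries were fitted on log2(RPKM + 0.5) with limma 3.58.1 (R 4.3.3, trend and robust), 6 group means and 8 contrasts, with 2-sided p-values adjusted by Benjamini-Hochberg over all genes tested and a threshold of 0.05. The fit was tested on simulated data. Depth was read from the steps of low values, of which 88.2 to 91.6% lay within 0.05 of a whole multiple of 1 read, so no count test was run. Alternatives covered pseudocount, filter, scaling, weights, samples in the fit, a covariate and leaving out libraries. Any exocrine gene could be named, with called genes of the marker lists, the 10 genes most like the acinar level, of which 1 is not reported here, and Mafa, Slc2a2 and Aqp3. The genes and lists were chosen with earlier results of these data known. The series' own description speaks of 5 replicates for each genotype, and their relation to animals is not stated, so p-values measure the spread between these libraries.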

Additional observations from a re-analysis of the deposited data

Results flagged for a closer look

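Over 144 sets of 4 libraries, 1 for each exocrine gene or share in each group of 4, 9 libraries stood far from the other 3 of their group, by the 95% critical value of Dixon's gap test. Chance gives about 1 in 20, so the number as such says little. In set 1 Cop1 Etv1/4/5 deletion, Car2 was 2.03 RPKM in replicate 1 against 0.216 to 0.309 in the others, and Aqp5 was listed at 0.0 in replicate 2 against 0.0914 to 0.0949. In set 2 controls, Pnlip was 941 RPKM in replicate 1 against 45.1 to 186. Replicate 4 of the same group was apart in 3 duct genes, Onecut1 at 0.767 (others 0.0263 to 0.11), Car2 at 7.16 (others 0.121 to 0.495) and Aqp5 at 0.328 (others 0 to 0.0266). In set 2 Cop1 deletion, Clps was 400.0 RPKM in replicate 3 against 148 to 181, Onecut1 was 0.257 in replicate 3 against 0.0114 to 0.0428, and Bhlha15 was 17.3 in replicate 2 against 22 to 22.9.

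The effect of Cop1 deletion on Slc4a4 differed between sets by -0.88 (set 2 minus set 1, log2 scale), by the limma contrast of the 2 effects (adjusted p = 0.0362).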

How the results depend on the processing

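No called gene changed direction under any alternative. Medians over the 29 genes did: they ranged from -0.35 to 0.55 for Cop1 Etv1/4/5 deletion against control, from -0.77 to 0.09 for it against Cop1 deletion and from -1.15 to 0.01 for Cop1 Etv4/5 deletion against control. For counts and shares 249 values stayed within 1.5 times or 1 SD of the reported one while 57 did not. Counts below are of the 29 exocrine genes called. With weights for library quality they were 2 over both sets, 3 in set 1 and 1 in set 2 for Cop1 deletion against control, 2 for Cop1 Etv1/4/5 deletion against control and 2 against Cop1 deletion, 2 for Cop1 Etv4/5 deletion against control and 23 against Cop1 deletion, and 2 for the difference between sets. Without set 2 Cop1 deletion replicates 2 and 3 they were 1 over both sets, 2 for Cop1 Etv1/4/5 against Cop1 deletion and 0 for Cop1 Etv4/5 against Cop1 deletion. With only the set concerned they were 0 for Cop1 Etv1/4/5 deletion against control and 0 for Cop1 Etv4/5 against Cop1 deletion. A pseudocount of 1, equal total RPKM, an equal median and equal totals without the exocrine genes each gave 2 for Cop1 Etv1/4/5 against Cop1 deletion. Without a filter there were 0 for Cop1 Etv4/5 against Cop1 deletion and 0 for the difference between sets, and requiring 1 RPKM in 10 or more libraries gave 0 for the former, since Ptf1a was then not tested. The cause was not tested for the others.

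Leaving out 1 library at a time gave 0 to 1 called over both sets, 0 to 2 in set 1 and 0 to 3 in set 2 for Cop1 deletion, 0 to 1 and 0 to 2 for Cop1 Etv1/4/5 deletion against control and against Cop1 deletion, 0 to 0 and 0 to 2 for Cop1 Etv4/5 deletion against the same, and 0 to 1 for the difference between sets. The acinar share moved from 1.47% to 2.43% in set 1 controls, from 2.24% to 3.34% in set 1 Cop1 deletion and from 1.81% to 2.88% in set 1 Cop1 Etv1/4/5 deletion when Ins1 and Ins2 were left out of the total. With the acinar level as a covariate, 12 genes outside the list were called for Cop1 Etv4/5 against Cop1 deletion in place of 247; the covariate was not run on the list itself, which defines it. A fit to 1 set alone has no value for comparisons across sets. No paired analysis was possible because the labels give no replicate numbers. Cela1 as the reference gene, and the values of Tmed6, Krt7, Spp1 and C1qa without the library labelled set 1 control replicate 2, were chosen after seeing the data. Depth is known only relative to the deepest library, so genes under 1 RPKM have no interval, and a gene listed at 0 is not shown to be absent.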

Other observations

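Serpini2, a pancreatic serine protease inhibitor of the other acinar list chosen after its values were seen, had a pattern like that of Ctrc in set 1. It was 1.49, 1.27 and 0.429 RPKM in controls, 0.608, 2.21 and 2.07 after Cop1 deletion and 4, 1.47, 17.1 and 10.8 after Cop1 Etv1/4/5 deletion. The log2 fold change against controls was 2.12 and was not called by limma (adjusted p = 0.0736). In set 2 it was at most 1.1 RPKM.

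The acute-phase secreted proteins Reg2 and Reg3b, chosen after their values were seen, were highest in set 2 Cop1 deletion replicate 3, the library with the highest acinar share. Reg2 was 1350 RPKM there, against 77.9 to 372 in the other 3 libraries of that group and 4.92 to 69.5 after Cop1 Etv4/5 deletion. Reg3b was 699 RPKM there and 1.36 to 32.4 after Cop1 Etv4/5 deletion. Neither was called in any comparison.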
